A study of Mus musculus with 6 samples.

Results

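The kinesin superfamily was described in RAW264.7 cells kept for 24 hours in medium with normal or low sodium. Members were the genes whose symbol in the array's annotation begins with Kif and a digit, each represented by the probe set with the highest mean signal among those annotated to exactly 1 gene. This gave 37 kinesin genes of 18193 genes measured. By textbook role 12 were mitotic kinesins, 13 were transport kinesins and 12 had other or less settled roles. RAW264.7 is an established mouse monocyte-macrophage line that can form osteoclast-like cells. Normal medium held sodium at 137 mmol/l (3 arrays) and low-sodium medium held it at 120 mmol/l (3 arrays), with mannitol added to the latter so that both had an osmolality of 290 mOsm/l. Each group is labelled as having 4 biological replicates, and 3 of each were analysed here. The cytokines that drive osteoclast formation, M-CSF (10 ng/ml) together with RANKL (30 ng/ml), are named in a wording that does not settle whether cells in normal sodium received them too, so every difference is between the media as labelled.

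Kinesins are motor proteins that turn ATP into movement along microtubules or into the removal of tubulin from microtubule ends. Mitotic kinesins push spindle poles apart, align chromosomes and build the midzone where the cell divides, and most of their genes are transcribed late in the cell cycle. Transport kinesins carry vesicles, mitochondria, endosomes and lysosomes along interphase microtubules. In macrophages and osteoclasts this traffic serves secretion, endosome movement and the turnover of podosomes, the adhesive structures from which the sealing zone of a resorbing osteoclast is built.

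The 2 arrays of replicate 3 differed from the remaining 4 in their labelling controls. Spiked transcripts that control labelling averaged a log2 intensity of 10.34 over the arrays of replicates 1 and 2 and 8.52 over those of replicate 3, and their means in the normal and the low group were 9.73 and 9.75. Differences are therefore also given for each replicate number. Levels are log2(intensity + 1), and differences are low minus normal sodium on that scale. A gene is called bright where its 6-array mean reached 5.87, which is the median over every probe set tested, and dim if not. The dimmest bright member was Kif12 at 6.07 and the brightest dim member was Kif6 at 5.69. Of the macrophage markers 10 of 10 were bright and of the osteoclast markers 8 of 10, Calcr and Itgb3 being dim, whereas 1 of 5 fibroblast or osteoblast markers, 2 of 4 epithelial, 0 of 4 lymphocyte and 0 of 5 neuronal markers were bright.

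Most bright mitotic kinesin genes were lower in low sodium and most bright transport kinesin genes were slightly higher. The median difference was -0.55 over the 12 mitotic kinesins and 0.34 over the 13 transport kinesins, against -0.0081 over all genes. Among bright members it was -0.68 over 9 mitotic and 0.34 over 11 transport kinesins, against -0.020 over all bright genes. Whether the classes differed was not tested, since the members are not replicates of a condition.

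The planned test compared the groups on all 6 arrays with limma and no further term. It called 0 of 37 kinesin genes (Benjamini-Hochberg over all genes), against 0.00550% of all genes, and 9 had an unadjusted p under 0.05. Of these 6 were mitotic kinesins, all lower, against 3.86% of all genes and 4.43% of bright genes. Another was a transport kinesin, which was higher, against 4.29% and 4.61%, and the remaining 2 had other roles and were lower. A limma fit with a term that sets replicate 3 apart and with a trended prior variance, called the batch-term fit, called 8 of 37, against 7.60% of all genes, and all 8 were among the 27 bright members, against 12.5% of bright genes. It was taken up because an earlier analysis of the same arrays had shown that it gave the most calls, so its p-values carry less weight than those of the planned test. The same term with a constant prior gave 0 of 37, with 13 at an unadjusted p under 0.05. The verbs rose and fell refer below to the batch-term fit, and standard errors (SE, n = 3 against 3) are from it too. In bulk RNA, fewer cells in a state and less RNA per cell cannot be told apart.

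Of the 12 mitotic kinesins 7 fell, 0 rose and 5 did not pass. The share that fell can be read against 3.81% of all genes and, for the 9 bright members, against 6.26% of bright genes. In 6 of the 9 every low-sodium array lay below every normal-sodium array, against 12.6% of bright genes and 9.07% of all genes, and 8 of the 9 were lower in low sodium in all 3 replicate numbers, against 26.7%. The count of 7 was 8 in replicates 1 and 2 alone. It was 5 without normal-sodium replicate 1 or low-sodium replicate 1 or 2, and 3 without normal-sodium replicate 2, the remaining 3 being Kif2c, Kif23 and Kif20a.

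**Figure D1:**
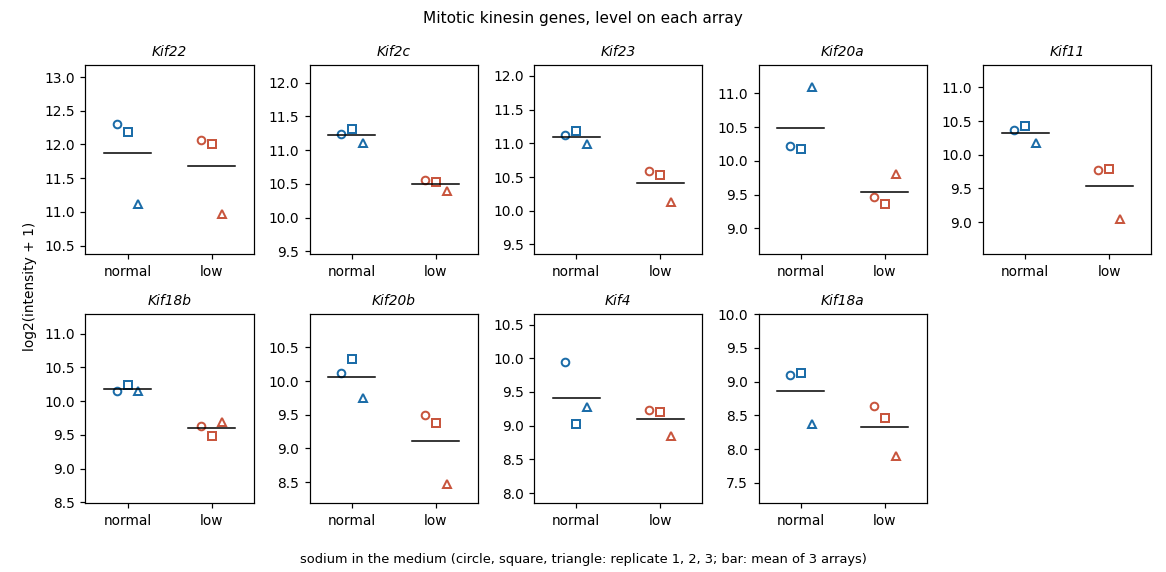
Levels of the 9 bright mitotic kinesin genes, as log2(intensity + 1), on the 3 normal-sodium (blue) and 3 low-sodium (red) arrays, with circles, squares and triangles for replicates 1, 2 and 3 and bars for the means. The groups are separate for 6 genes and overlap for Kif22, Kif4 and Kif18a.

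Among motors that build and hold the bipolar spindle, Kif11 encodes kinesin-5, which slides antiparallel spindle microtubules apart. Its levels were 10.36, 10.42 and 10.18 in normal sodium and 9.77, 9.79 and 9.04 in low sodium. All 3 low-sodium arrays lay below all normal-sodium arrays, and the low-sodium array of replicate 3 was the lowest. Kif11 fell by 0.79 ± 0.12 on the log2 scale, or 1.73-fold (adjusted p = 0.0103 in the batch-term fit, 0.563 in the planned test). It did not pass without normal-sodium replicate 2 (adjusted p = 0.0577). Its 2 other probe sets, both bright, differed by -0.83 and -1.14. Kif15, a kinesin-12 that can support bipolar spindles beside kinesin-5, was dim, and its difference of 1.43 became 0.85 with a pseudocount of 16 in place of 1 and did not pass (adjusted p = 0.306 in the batch-term fit).

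Motors that act at kinetochores and microtubule ends came next. Kif2c encodes the centromeric depolymerase MCAK, a kinesin-13 that removes tubulin from microtubule ends and so helps to correct faulty attachments. Its levels were 11.25, 11.31 and 11.11 in normal sodium and 10.56, 10.53 and 10.39 in low sodium. The spread within either group was small beside the gap between them, and the per-replicate differences were -0.68, -0.78 and -0.72. Kif2c fell by 0.73 ± 0.07, or 1.66-fold (adjusted p = 0.00218 in the batch-term fit, 0.399 in the planned test), and this was the smallest planned adjusted p of any kinesin gene. Its other 2 bright probe sets differed by -0.86 and -0.60.

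Kif18a and Kif18b encode kinesin-8 motors, of which the former aligns chromosomes at the spindle equator and the latter limits astral microtubules. Kif18b was measured at 10.15, 10.23 and 10.15 in normal sodium and at 9.63, 9.49 and 9.70 in low sodium, with no overlap. It fell by 0.57 ± 0.09, or 1.48-fold (adjusted p = 0.0140 in the batch-term fit, 0.492 in the planned test). Kif18b did not pass with the replicate number as a block (adjusted p = 0.0572), with arrays centred on their median (adjusted p = 0.0723) or without any 1 array of replicates 1 and 2 (adjusted p = 0.0695 to 0.0905). Kif18a was measured at 9.10, 9.13 and 8.37 in normal sodium and at 8.65, 8.46 and 7.90 in low sodium. Here the groups overlapped because replicate 3 was low in both media, while each replicate number gave a lower value in low sodium. Kif18a fell by 0.53 ± 0.13, close to the threshold (adjusted p = 0.0489), and it did not pass with a pseudocount of 16 (adjusted p = 0.0558) or after quantile normalisation (adjusted p = 0.0590), nor without any 1 array of replicates 1 and 2 (adjusted p = 0.140 to 0.191). The dim kinesin-13 gene Kif2b differed by 0.20 and did not pass.

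The chosen probe sets of the chromokinesins, which bind chromosome arms, gave weaker differences. Kif22, also known as Kid, pushes chromosome arms away from the poles. Its levels were 12.31, 12.19 and 11.12 in normal sodium and 12.07, 12.01 and 10.96 in low sodium, so that replicate 3 lay about as far from the other replicates in either medium. The difference was -0.19 ± 0.07 and did not pass (adjusted p = 0.147). The other 2 bright probe sets of Kif22 differed by -0.73 and -0.70, and the mean over its probe sets passed the batch-term fit at -0.54 (adjusted p = 0.0143). Kif4, which also sets the length of midzone microtubules, was measured at 9.94, 9.02 and 9.27 in normal sodium and at 9.24, 9.21 and 8.85 in low sodium. The groups overlapped, replicate 2 was higher in low sodium, and the difference of -0.31 ± 0.22 did not pass (adjusted p = 0.483). It was -0.065 without normal-sodium replicate 1 and -0.59 without normal-sodium replicate 2.

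Kinesin-6 motors act at the midzone and in cytokinesis. Kif23 encodes MKLP1, which forms the centralspindlin complex of the midzone with Racgap1. Its levels were 11.13, 11.18 and 10.98 in normal sodium and 10.58, 10.53 and 10.13 in low sodium, without overlap. Kif23 fell by 0.68 ± 0.08, or 1.60-fold (adjusted p = 0.00505 in the batch-term fit, 0.521 in the planned test), and its 1 other bright probe set differed by -0.77. The mean over all its probe sets was -0.79 and did not pass (adjusted p = 0.193).

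Kif20a encodes MKLP2, which brings the chromosomal passenger complex with Aurora B to the midzone. It was measured at 10.22, 10.17 and 11.09 in normal sodium and at 9.47, 9.36 and 9.80 in low sodium. Replicate 3 was the highest array of either group, and the groups did not overlap. Kif20a fell by 0.95 ± 0.12, or 1.93-fold (adjusted p = 0.00565 in the batch-term fit, 0.563 in the planned test). Kif20b, or MPP1, acts in the completion of cytokinesis, and was measured at 10.11, 10.33 and 9.76 in normal sodium and at 9.49, 9.38 and 8.48 in low sodium. It fell by 0.95 ± 0.13, also 1.93-fold (adjusted p = 0.00749 in the batch-term fit, 0.590 in the planned test), with its lowest array in low-sodium replicate 3. Its other bright probe set differed by -0.84, but the mean over all its probe sets, dim ones included, was -0.50 and did not pass (adjusted p = 0.438), and Kif20b also did not pass without normal-sodium replicate 2 (adjusted p = 0.0558). Kif20a and Kif20b thus had like differences while their replicate 3 arrays departed from the others in opposite directions. The dim cytokinesis gene Kif14 differed by 0.09 and did not pass.

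Promoter sequence was looked at for the kinesin genes with a stretch in the set searched, whichever way they differed. RefSeq stretches of 300 bases on GRCm38.p6, with 250 bases before the start site and 50 from it on, matched 31 of the 37 genes, 11 of them mitotic, 10 transport and 10 others. Kif20a, which fell, was not among the mitotic genes searched. Of the 11 bright transport kinesins 8 were searched. The motif counts therefore do not cover every member of either class. On both strands, TTTGAA occurred in 9 of 11 mitotic kinesin promoters, 0 of 10 transport kinesin promoters and 2 of 10 others. This can be read against 17.9% of the 32851 stretches searched. Of the 9 mitotic genes with the motif 5 fell, bright Kif22 and Kif4 did not pass, and dim Kif14 and Kif15 did not pass either, with differences of 0.09 and 1.43. Counts use the first listed stretch of each gene, and a second stretch of Kif1a held the motif. These are the letters of the cell cycle genes homology region, an element known from promoters of late cell-cycle genes. CCAAT occurred in 7 of 11, 3 of 10 and 4 of 10, against 37.4%. Of 5 further motifs searched, TTTGGCGC was found in 2 of 11 mitotic promoters and 0 of 20 others (0.514% of all stretches), GGCGGG in 6 of 11, 7 of 10 and 7 of 10 (35.3%), TTTAAA in 2 of 11 and 0 of 20 (13.2%), and TTCGAA and GGCGGGAA in 0 of 11 mitotic promoters (1.56% and 2.19%). A GGCGGG match lies inside every GGCGGGAA match. These are matches of letters and not sites shown to be bound.

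Stretches are printed 5′ to 3′ on the gene's strand for 6 bright mitotic kinesins with a TTTGAA match and for 3 transport kinesins without one, with the letters of the first 2 motifs, on either strand, in capitals. They show how close the matches lie to the start site of the stretch used. All 30 printed bases of Kif22, Kif2c, Kif20b, Kif3a and Kif1c lay inside the RefSeq gene span. So did some bases before the start in Kif23 and Kif18b. For these genes the start used was therefore not the outermost one. The TTTGAA match began 19 bases before the start in Kif11, 17 before it in Kif22, where another lay 215 bases before, and 103 before it in Kif2c. It began at base 3 from the start in Kif23, at base 4 in Kif18b and at bases 8 and 14 in Kif20b.
Kif11, chr19:37376322-37376381, plus strand: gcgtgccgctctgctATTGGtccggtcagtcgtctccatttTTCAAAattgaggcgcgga
Kif22, chr7:127042421-127042450, minus strand: ggggccccggtaaTTCAAAagagagaagcg
Kif2c, chr4:117178858-117178887, minus strand: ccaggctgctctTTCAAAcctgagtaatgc
Kif23, chr9:61946785-61946814, minus strand: ggccgctgATTGGcctgTTTGAAatgcgcc
Kif18b, chr11:102925110-102925139, minus strand: gatgagcggaccggctagTTTGAAcgcgcc
Kif20b, chr19:34922353-34922382, plus strand: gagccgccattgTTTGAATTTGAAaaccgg
Kif3a, chr11:53567339-53567368, plus strand: aggacacccgagATTGGgcggggcgagctc
Kif3b, chr2:153291336-153291365, plus strand: gcttcggaggcCCAATaaagttattgaaat
Kif1c, chr11:70700518-70700547, plus strand: gcccgggcgggcgccggccgctggcgccgc
Among genes with a match, the chosen probe sets of Kif22 and Kif2c differed by -0.19 and -0.73. Kif18a, which fell, held neither TTTGAA nor CCAAT in its stretch.

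Of the 13 transport kinesins 1 rose, 0 fell and 12 did not pass, against 3.78% of all genes and 6.24% of bright genes that rose. The 1 that rose is 9.09% of the 11 bright members, which is near the share of bright genes. Of the 11 bright members 10 were higher in low sodium and 1 was lower, while 5165 of all 10880 bright genes were higher. In 4 of the 11 every low-sodium array lay above every normal-sodium array, against 11.0% of bright genes and 8.44% of all genes, and 6 of the 11 were higher in all 3 replicate numbers, against 24.1%. The count of 1 was 2 in replicates 1 and 2 alone, where Kif1b passed with Kif5b. It was 0 with arrays centred on their median, with the mean of all probe sets, with the replicate number as a block (Kif5b adjusted p = 0.102), with a constant prior and without any 1 array of replicates 1 and 2. Markers of the macrophage and osteoclast states were counted in the same fit. Of 10 macrophage markers 3 rose, 0 fell and 7 did not pass, against 3.78% of all genes and 6.24% of bright genes that rose, and their mean log2 level lay between 12.82 and 13.02 on normal-sodium arrays and between 13.11 and 13.24 on low-sodium arrays. Of 10 osteoclast markers 5 rose, 0 fell and 5 did not pass, against the same shares, with mean levels of 6.03 to 7.27 in normal sodium and 7.17 to 8.10 in low sodium. The macrophage markers that rose were Adgre1, Fcgr3 and Mpeg1, at 0.96, 0.90 and 0.48. The osteoclast markers that rose were Atp6v0d2, Ocstamp, Dcstamp, Ctsk and Mmp9, at 3.41, 2.76, 1.52, 1.15 and 1.05. Csf1r, the M-CSF receptor gene, was lower on every low-sodium array at -0.16. The osteoclast markers Nfatc1, Itgb3 and Oscar differed by -0.23, -0.23 and -0.17. None of these 4, named after their values were seen, passed. None of the fibroblast or osteoblast, epithelial, lymphocyte and neuronal markers passed the batch-term fit. The part of these markers in the kinesin differences was not tested.

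**Figure D2:**
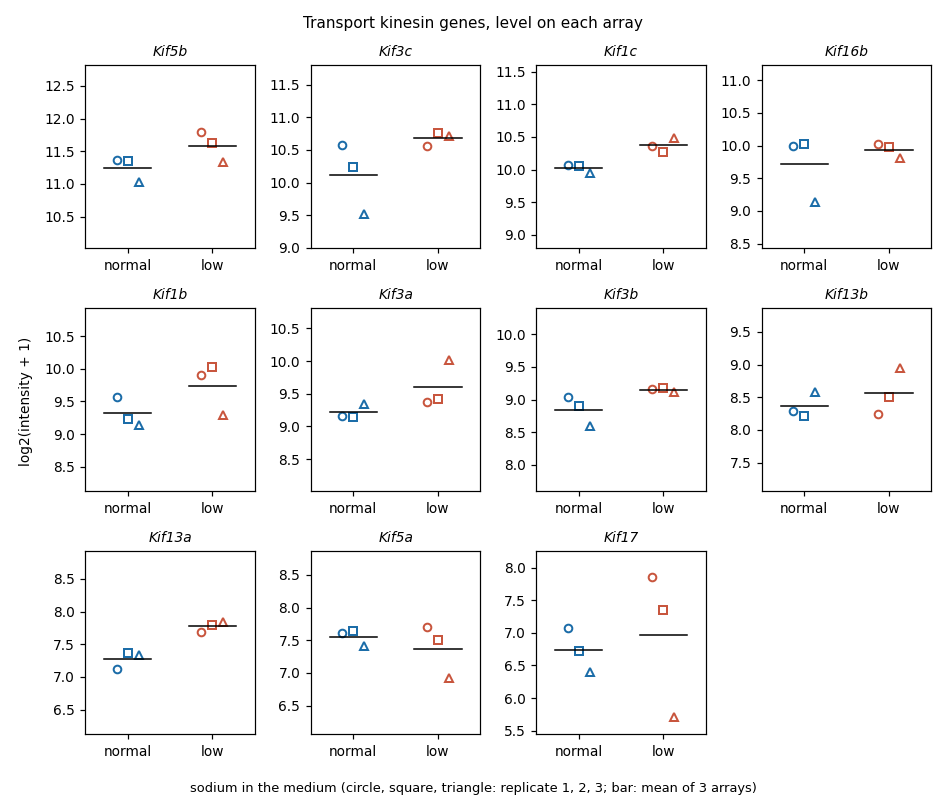
Levels of the 11 bright transport kinesin genes, as log2(intensity + 1), on the 3 normal-sodium (blue) and 3 low-sodium (red) arrays, with circles, squares and triangles for replicates 1, 2 and 3 and bars for the means. The groups are separate for Kif1c, Kif3a, Kif3b and Kif13a, with low sodium higher, and overlap for the other 7.

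Kinesin-1 heavy chains carry vesicles, mitochondria and lysosomes outward. The ubiquitous member Kif5b was measured at 11.37, 11.35 and 11.02 in normal sodium and at 11.79, 11.63 and 11.33 in low sodium. Replicate 3 was lowest in both media, which made the groups overlap, and each replicate number was higher in low sodium. Kif5b rose by 0.34 ± 0.07, or 1.26-fold (adjusted p = 0.0342 in the batch-term fit, 0.749 in the planned test). Its 5 other bright probe sets were higher too, but by less. They gave 0.07, 0.06, 0.10, 0.13 and 0.30, the last at a mean level of only 5.96. The mean over all probe sets of Kif5b did not pass at 0.16 (adjusted p = 0.451). Without any 1 array of replicates 1 and 2 the adjusted p of the chosen Kif5b probe set was 0.0998 to 0.167. The neuronal heavy chains did not pass, with differences of -0.18 for Kif5a and -0.75 for Kif5c, and Kif5c was dim.

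Kinesin-2 motors move cargo inside cilia and carry vesicles in cells without them. Kif3a and Kif3b encode the 2 motor subunits of the heterotrimeric complex. Kif3a was measured at 9.15, 9.15 and 9.35 in normal sodium and at 9.38, 9.41 and 10.02 in low sodium. Kif3b was measured at 9.03, 8.90 and 8.59 in normal sodium and at 9.17, 9.18 and 9.11 in low sodium. In both genes the groups were separate and low sodium was higher, and all 3 other probe sets of each were bright and went the same way. The differences of 0.39 ± 0.12 for Kif3a and 0.31 ± 0.12 for Kif3b did not pass (adjusted p = 0.103 and 0.191).

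Kif3c, a further kinesin-2 subunit, differed by 0.57 ± 0.20 without passing (adjusted p = 0.143), with -0.01, 0.51 and 1.20 in replicates 1, 2 and 3. Most of that mean came from replicate 3, where the normal-sodium array was low at 9.52. Kif17, the homodimeric member, differed by 0.79, 0.63 and -0.70 in the replicates, and these values did not share a direction.

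Kinesin-3 motors carry vesicles, mitochondria and endosomes. Kif1c, a vesicle motor known to act on podosome turnover in macrophages, was measured at 10.07, 10.06 and 9.94 in normal sodium and at 10.36, 10.26 and 10.49 in low sodium. The groups were separate, and the difference of 0.35 ± 0.09 did not pass (adjusted p = 0.0739). Kif1b, which moves mitochondria and vesicles, was measured at 9.57, 9.23 and 9.14 in normal sodium and at 9.90, 10.03 and 9.29 in low sodium, with overlap. Its difference of 0.42 ± 0.14 did not pass (adjusted p = 0.125), and over replicates 1 and 2 alone it was 0.56 and passed (adjusted p = 0.0231). A further 6 bright probe sets measured Kif1b, of which 5 were higher as well, though not all by much. The 5 gave 0.61, 0.40, 0.074, 0.0067 and 0.00055, and the other gave -0.12. The mean over all probe sets of Kif1b was 0.20 and did not pass the batch-term fit (adjusted p = 0.612).

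Kif13a, which carries endosomal cargo, was measured at 7.13, 7.36 and 7.34 in normal sodium and at 7.70, 7.80 and 7.83 in low sodium. These groups were separate, and Kif13a was the 1 kinesin gene higher in low sodium with an unadjusted p under 0.05 in the planned limma test across all genes (adjusted p = 0.563). It did not pass the batch-term fit at 0.50 ± 0.19 (adjusted p = 0.175). Another 3 bright probe sets measured Kif13a, and 2 of them were also higher. The related genes Kif13b and Kif16b, the latter an early endosome motor, differed by 0.20 and 0.22, and replicates 1 and 2 of Kif16b gave 0.02 and -0.04. The dim neuronal gene Kif1a differed by 0.86 and did not pass.

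**Figure D3:**
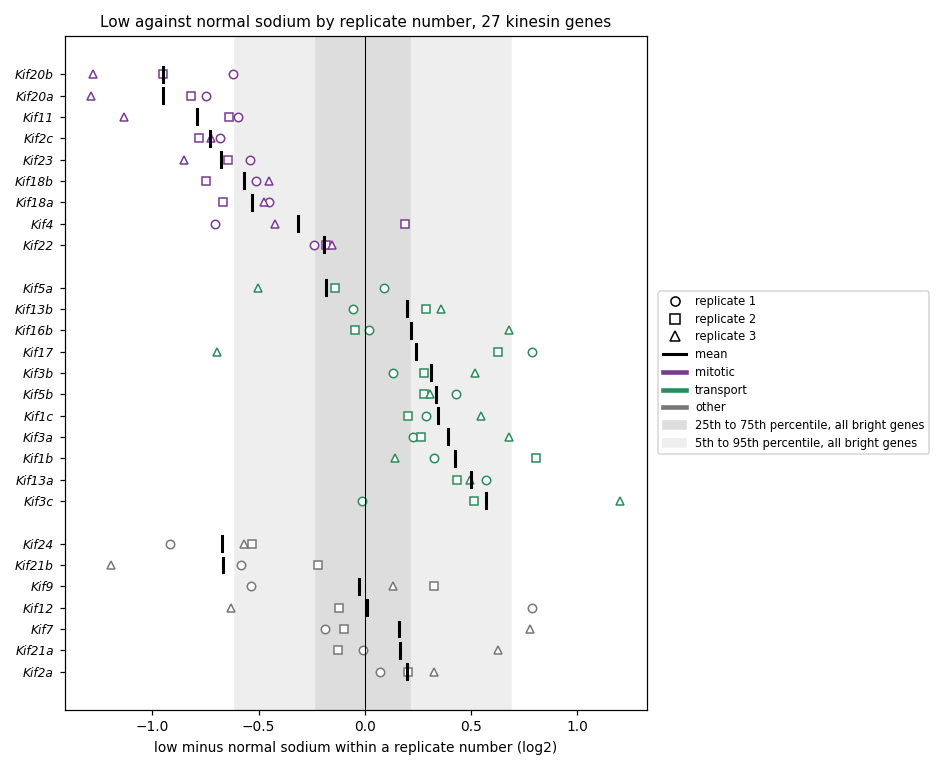
Low minus normal sodium (log2) within replicate number 1, 2 or 3 for the 27 bright kinesin genes, with a bar for the mean and grey bands for the 25th to 75th and 5th to 95th percentiles of the mean difference over all bright genes. In 8 of 9 mitotic kinesins all 3 symbols lie left of 0, and in 6 of 11 transport kinesins all 3 lie right of it.

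By replicate number, the bright mitotic kinesins had median differences of -0.60, -0.67 and -0.72 and the bright transport kinesins of 0.23, 0.28 and 0.49 in replicates 1, 2 and 3. The sign of either class was thus the same in each pair of arrays. Replicate 3 gave the difference farthest from 0 in Kif20a, Kif20b, Kif11 and Kif23, at -1.29, -1.28, -1.14 and -0.85, but not in Kif2c, Kif18a, Kif18b, Kif22 or Kif4. With 1 array per group in a replicate number, differences between the numbers were not tested.

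Among the 12 kinesins with other roles 0 rose and 0 fell in the batch-term fit, with 2 at an unadjusted p under 0.05 in the planned test, and both of those were lower in low sodium. Kif24, a centriolar protein that restrains cilium formation, was measured at 8.56, 8.19 and 7.91 in normal sodium and at 7.64, 7.66 and 7.34 in low sodium. The groups did not overlap, and the difference of -0.67 ± 0.18 did not pass (adjusted p = 0.0662). Kif21b, which restrains microtubule growth, was measured at 9.93, 9.74 and 9.88 in normal sodium and at 9.35, 9.51 and 8.68 in low sodium. Its groups did not overlap either, and the difference of -0.67 ± 0.17 did not pass (adjusted p = 0.0624). Both genes passed in replicates 1 and 2 alone (adjusted p = 0.0385 for Kif24 and 0.0386 for Kif21b), where the difference was -0.72 for Kif24 and only -0.40 for Kif21b. With the mean of all probe sets Kif24 was at -0.33 and did not pass (adjusted p = 0.653).

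Kif2a, a kinesin-13 depolymerase of spindles and neurons related to Kif2c, was measured at 9.68, 9.64 and 9.54 in normal sodium and at 9.75, 9.85 and 9.87 in low sodium. It was higher by 0.20 ± 0.09 without passing (adjusted p = 0.275), and 2 of its 3 other bright probe sets gave differences just below 0. Kif7, a Hedgehog pathway kinesin of the cilium tip, and Kif21a differed by 0.16 each, with replicate 3 as the 1 pair above 0. Kif9 and Kif12 differed by -0.03 and 0.01.

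In all, 10 kinesin genes were dim, with means between 1.95 and 5.69. Their differences ran from -0.75 to 1.43, and from -0.50 to 0.85 with a pseudocount of 16. None passed the batch-term fit, in which the lowest adjusted p among them was 0.306. Over the 27 bright kinesins, 39 other bright probe sets were available for 17 genes, and 33 of them went the same way as the chosen one. The split was 8 of 8 for mitotic, 23 of 27 for transport and 2 of 4 for other kinesins.

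Motors of the same superfamily that the symbol rule leaves out were measured for 5 of 5 genes. Cenpe, the kinetochore motor that moves chromosomes to the spindle equator, fell by 0.77 ± 0.11, or 1.71-fold (adjusted p = 0.00728 in the batch-term fit, 0.527 in the planned test). Kifc1, a minus-end spindle motor, differed by -0.39 ± 0.13 and did not pass (adjusted p = 0.125). Kifc3 and Kifc2 differed by -0.37 and 0.54 without passing.

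Proteins that work with mitotic kinesins were measured for 20 of 23 listed symbols. Of these 20, all bright, 17 fell, 1 rose and 2 did not pass, against 6.26% of bright genes that fell and 6.24% that rose. The median difference was -0.64, with -0.62 in replicates 1 and 2 and -0.65 in replicate 3. Aurkb, the kinase carried to the midzone by MKLP2, fell by 0.93 ± 0.07, and Racgap1, the partner of Kif23, by 0.75 ± 0.07. Plk1 and Aurka, kinases of spindle assembly, fell by 0.85 and 0.83. The 1 that rose, named after its value was seen, was Cit, the gene of citron kinase of the cleavage furrow, at 0.81 ± 0.09. It therefore went against the other members of its list.

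Markers of proliferating cells were counted beside the mitotic kinesins. Of 14 such genes 14 were bright, 7 fell, 0 rose and 7 did not pass, against 6.26% of bright genes that fell. Those that fell included Ccnb2 and Ccna2, cyclins of late cell-cycle phases, at -0.85 and -0.74, Top2a at -0.73 and Foxm1 at -0.54. Pcna, a replication clamp, was higher on every low-sodium array, with a difference of 0.13 that did not pass, and Rrm2 and Lin9 differed by 0.12 and 0.11 without passing. These 3 were named after their values were seen. The mean log2 level of all 14 markers was between 11.21 and 11.50 on normal-sodium arrays and between 10.54 and 11.18 on low-sodium arrays. Over the list, replicates 1 and 2 gave a median of -0.33, and replicate 3 gave -0.82. The part of the listed markers in the difference of the mitotic kinesins was not tested.

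Partners of transport kinesins were measured for 18 of 21 listed symbols, of which 4 rose, 0 fell and 14 did not pass, against 3.78% of all genes and 6.24% of bright genes that rose, with a median difference of 0.32. Rab11a, a recycling endosome GTPase, rose by 0.47 ± 0.06, the membrane scaffold gene Kidins220 by 0.38 ± 0.07 and Rab14 by 0.42 ± 0.10. Mapk8ip3, a scaffold that links kinesin-1 to cargo, differed by 0.58 ± 0.19 without passing. Kifap3, the accessory subunit of the Kif3a and Kif3b motor, had separate groups and a difference of 0.32 ± 0.08 that did not pass (adjusted p = 0.0551), and it was named after its value was seen. So were Trak1, a mitochondrial adaptor, and Madd, a vesicle adaptor, which were lower on every low-sodium array at -0.30 and -0.25 and did not pass.

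Dynein and dynactin, which form the motor of opposite direction, had a median difference of 0.17 over 21 of 22 listed genes, of which 3 rose, 1 fell and 17 did not pass, against 3.78% of all genes that rose and 3.81% that fell, or 6.24% and 6.26% of bright genes. The light chain gene Dynlt3 rose by 0.69 ± 0.09, and Nde1, a dynein regulator that also acts in mitosis, fell by 0.53 ± 0.09. Hook3, a dynein adaptor, differed by 0.35 ± 0.12 without passing. Tubulins, the track on which all these motors run, had a median of -0.22 over 13 of 15 listed genes. Of these 1 rose and 1 fell, few calls at 7.69% each way against the same backgrounds. In 6 of the 13 every low-sodium array lay below every normal-sodium array, and in 1 above, against 9.07% and 8.44% of all genes. Of the 11 bright tubulins 8 were lower and 2 higher in all 3 replicate numbers, against 26.7% and 24.1% of bright genes. Tubb2a rose by 1.08 ± 0.07 and Tubb4b fell by 0.51 ± 0.07, while Tubd1 and Tubb4a differed by -0.43 and -0.41 without passing. Tubulin genes are alike in sequence, so their probe sets may not be fully specific.

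**Figure D4:**
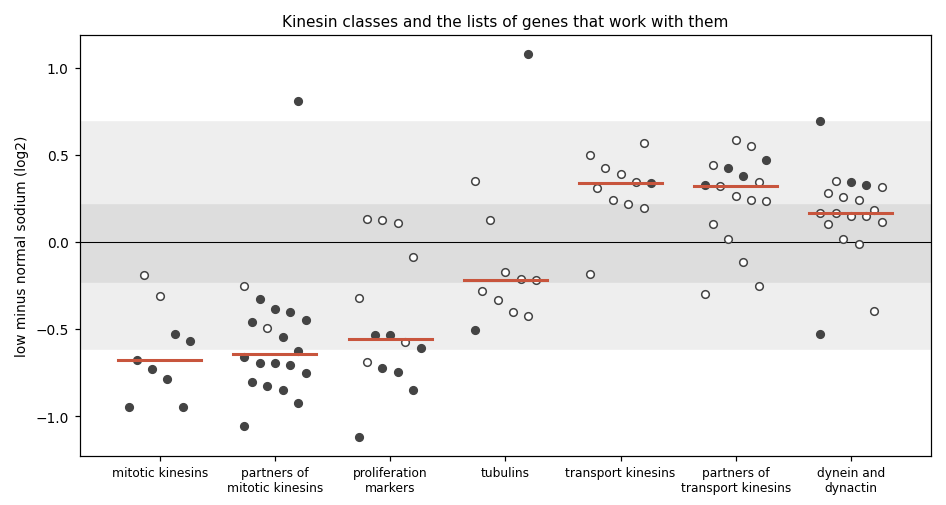
Low minus normal sodium (log2) for each bright gene of the kinesin classes and of 5 related lists, with filled circles for genes that passed the batch-term fit, red bars for list medians and grey bands for the 25th to 75th and 5th to 95th percentiles of all bright genes. The medians lie at -0.68 for mitotic kinesins and -0.64 for their partners, and at 0.34 for transport kinesins and 0.32 for their partners.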

How the data were processed

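RNA of 6 samples was put on Affymetrix mouse arrays after biotin labelling, per the labels' protocols. The deposited values were linear intensity values for 45101 probe sets. The submitters' processing notes name Partek without a version, and how probes were summarised was not stated there. A trimmed mean (2nd to 98th percentile) came to 500.003 for every array, as global scaling gives. Here log2(intensity + 1) was taken, and 64 control probe sets were left out. Each gene was represented by the probe set with the highest mean, so dim genes depend on the pseudocount. The number of arrays limits the precision, and p-values measure the spread between these samples.

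The planned fit was limma 3.58.1 in R 4.3.3 (lmFit, eBayes with a constant prior, two-sided, adjusted p under 0.05 over 18193 genes). The batch-term fit added a term for replicate 3 and a trended prior. Scripts were tested on simulated data. Members, lists and fits were chosen with earlier results of these data known. Bright members were named with their values, dim ones by range, and up to 4 genes of each related list by the smallest planned p. Alternatives covered the pseudocount, scaling, a filter, the probe sets of a gene, the replicate number as a block, the prior and leaving out arrays.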

Additional observations from a re-analysis of the deposited data

How the results depend on the processing

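The planned test called 0 of 37 kinesin genes under each of the 15 alternatives run on it, with 9 at an unadjusted p under 0.05 in the planned fit itself. The batch-term count of 8 became 0 with a constant prior and 5 with the mean of all probe sets of a gene, of which 4 were among the 8. It ranged from 3 to 12 when 1 array was left out, and was 12 only without an array of replicate 3. Pseudocount, quantile normalisation, median centring, the filter, and replicates 1 and 2 alone gave 6 to 12. With the replicate number as a block the batch-term count was 5 and the planned count 0. The class medians stayed at -0.55 and 0.34, which a block cannot change with 1 array per group in each replicate number. Replicate numbers were not taken as pairs, since deviations of same-numbered arrays from their group means correlated at 0.10, 0.08 and 0.24 across 18193 genes, and normal-sodium replicate 2 did not correlate best with its own number. Without 1 array the mitotic median ran from -0.64 to -0.45 and the transport median from 0.27 to 0.40. No alternative turned either median, and with quantile normalisation they were -0.53 and 0.33. The scalings moved the median of all genes by less than 0.1. The medians over bright members were added after the data were seen.

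Signs turned for some bright genes that had not passed, whose differences ran from -0.18 for Kif5a to 0.24 for Kif17. Kif12 was at -0.0043 with a pseudocount of 16. Kif2a was at -0.040 and Kif5a at 0.29 with the mean of all probe sets. In replicates 1 and 2 alone Kif16b was at -0.012, Kif21a at -0.067 and Kif7 at -0.14. Leaving out 1 array gave ranges of -0.41 to 0.33 for Kif12, -0.23 to 0.22 for Kif9 and -0.012 to 0.29 for Kif16b. The ranges were -0.067 to 0.35 for Kif21a, -0.14 to 0.29 for Kif7 and -0.039 to 0.71 for Kif17. In the batch-term fit, leaving out either array of replicate 3 gives the same differences as replicates 1 and 2 alone, so these are not separate checks. Low signal limits the dim genes. The causes of these shifts were not tested.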
